A study of Acanthocheilonema viteae with 2 samples.

Results

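Of the 384 deposited entries of small RNA released in culture by adult Acanthocheilonema viteae, filarial worms that live in rodents, 16 carry a nematode species code and a miRNA number from 5300 up to below 5900. The rule took the name alone and no measured value. These entries stand for 11 miRNA numbers, from miR-5360 to miR-5866. Of the names, 14 come from Brugia malayi (bma), a filarial worm of humans, and 2 from Ascaris suum (asu), the large roundworm of pigs. A name says which registered miRNA a sequence resembles in those species. The nearest nematode names outside the range were bma-miR-1822_R-2, with 39 female and 6 male reads, and hpo-miR-10078-5p_1ss10TC, with 6 female and 8 male reads. The study compared 2 samples, 1 library from the secretions of adult females and 1 from those of adult males. The sexes were cultured apart in RPMI medium with penicillin, streptomycin and L-glutamine for up to 3 weeks, and RNA was taken from what ultracentrifugation pelleted out of the filtered, concentrated medium. No genotype or drug arm enters the comparison, and the labels do not say how many worms or cultures stand behind each library.

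A miRNA is cut from a hairpin precursor as a short duplex of a 5p and a 3p arm, of which one arm is usually kept by an Argonaute protein and the other is lost. The bases near its 5′ end, the seed, do most of the pairing with target mRNAs, so miRNAs with the same seed are counted as a family. Some families, such as let-7, lin-4 and miR-100, are shared by most animals, whereas miRNAs with high registry numbers in Brugia and Ascaris were named late, from sequencing of parasitic worms. The species code and number say nothing of their role, and none is given for them here.

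The female library held 292740 reads over all entries and the male library 74881.3, 3.91 times as many in the female. Mammal-named entries took 6.71% of female and 51.4% of male reads, and their part in the differences below was not tested beyond the change of scale. Female-to-male ratios are therefore given on 2 scales. The all-read scale divides by the total, and the worm-read scale by the reads of nematode-named plus predicted (PC-) entries, 273106 for females and 36371 for males. A ratio on the worm-read scale is 1.92 times lower than the same ratio on the all-read scale. There was no replicate of either sex, so no difference has a test, and every 95% interval (exact binomial, Clopper-Pearson) covers counting error only. A floor of 3 reads stands for 0 reads.

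The sequences that the results turn on are given here in the 5′ to 3′ direction as deposited, with T for U and with the seed (bases 2 to 8) in capitals. First come the most abundant entries of the set and the 2 arms of miR-5838, which differed most between the libraries.
bma-miR-5866: tTACCATGttgatcgatctcca
bma-miR-5843_1ss11TC: aTGAGCAActctgccttcgttga
asu-miR-5360-5p: aCGAATCGtcgaatcggatgtct
bma-miR-5364: cGAGGTATtgtttattggctga
bma-miR-5361: tGGGATATctcggaaggtttcg
bma-miR-5838-5p: tGCTAAACcgtaaatgctccta
bma-miR-5838-3p: tGAGTATTttcggtttcgcatc

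The next sequences are the older relatives by seed and 1 further member, shown so that the shared and the differing bases can be read against the lines above.
bma-miR-87a_R+1: gTGAGCAAagtttcaggtgttt
bma-miR-87b_R+1: gTGAGCAAagtctcaggtgtc
bma-miR-5363-5p_R-1: aTGGGCAAcgtttcaaaccgtg
asu-let-7-5p: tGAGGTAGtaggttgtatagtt
asu-miR-84-5p: tGAGGTAGtttataaagctgcga

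Together the 16 entries made up a small part of the released miRNA, and a larger part of all reads in the female library. They held 10797 female and 1641 male reads, 3.69% of all female reads (95% interval 3.62 to 3.76) and 2.19% of all male reads (2.09 to 2.30). The ratio was 1.68 (1.60 to 1.77). Of worm reads they held 3.95% (3.88 to 4.03) in females and 4.51% (4.30 to 4.73) in males, a ratio of 0.876 (0.832 to 0.923), so the side of the sum turned with the scale. The 69 older nematode-named entries (lower numbers, or family names such as let-7) summed to a ratio of 1.99 (1.97 to 2.02) on the all-read and 1.04 (1.03 to 1.05) on the worm-read scale.

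Both libraries were led by the same 4 members, in another order. In the female library bma-miR-5866 came first, with 4158 reads or 1.42% of all reads (1.38 to 1.46), and ranked 12 among the 86 nematode-named entries. Next came bma-miR-5843_1ss11TC with 3566 reads or 1.22% (1.18 to 1.26), asu-miR-5360-5p with 1693 reads or 0.578% (0.551 to 0.606) and bma-miR-5364 with 840 reads or 0.287% (0.268 to 0.307). The intervals of these female levels did not overlap. In the male library bma-miR-5364 came first, with 574 reads or 0.767% of all reads (0.705 to 0.832), and ranked 13 among the nematode-named entries, against 29 in the female library. There bma-miR-5843_1ss11TC followed with 345 reads or 0.461% (0.413 to 0.512) and bma-miR-5866 with 318 reads or 0.425% (0.379 to 0.474), and the intervals of these 2 levels overlapped. The male levels of asu-miR-5360-5p (128 reads, 0.171%) and bma-miR-5361 (127 reads, 0.170%) were also alike within counting error. For bma-miR-5361 the female library held 343 reads, 0.117% (0.105 to 0.130).

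**Figure D1:**
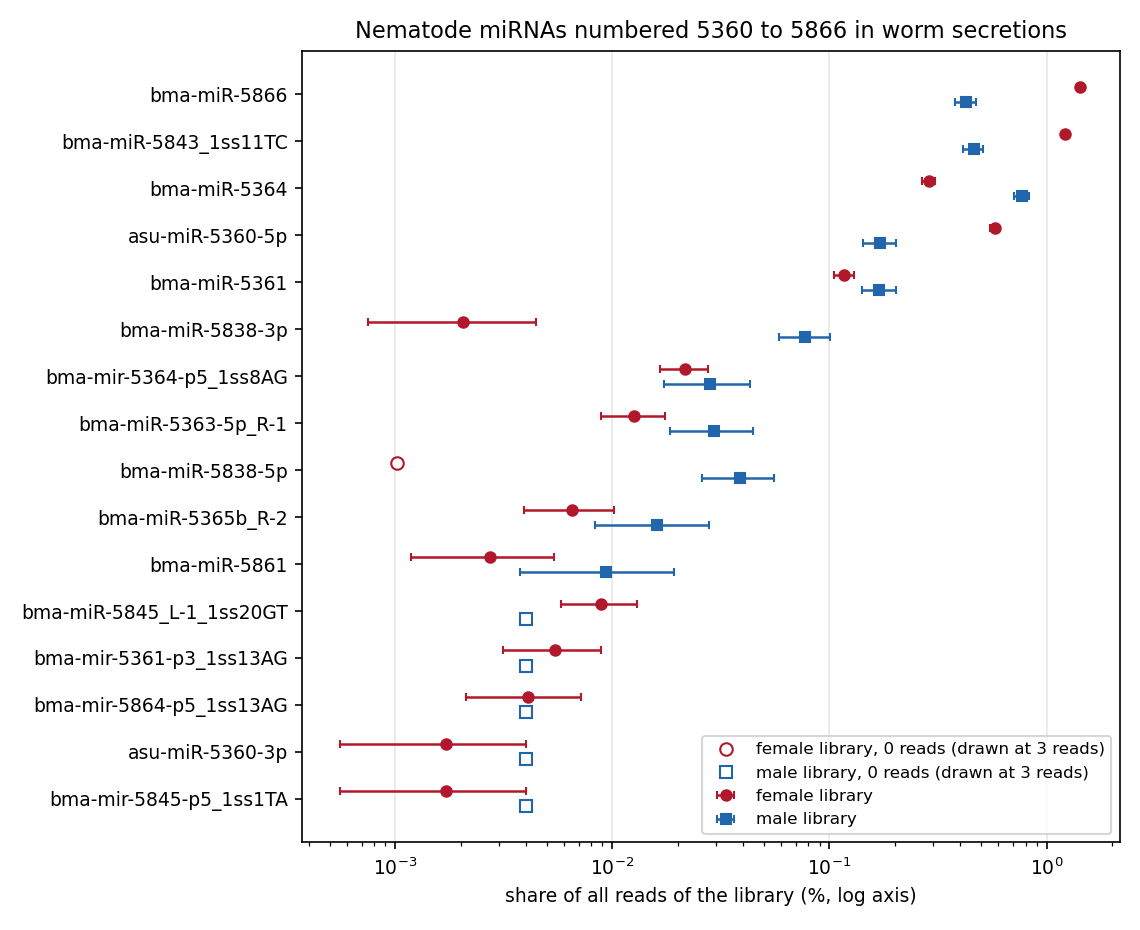
Share of all reads of each library on a log axis for the 16 entries, with the female library as red circles above and the male library as blue squares below. Bars are exact 95% binomial intervals and open symbols mark 0 reads, drawn at the share of 3 reads. The female points lie to the right for miR-5866, miR-5843 and miR-5360-5p and to the left for miR-5364 and both arms of miR-5838.

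The makeup of the set, which no scaling of the libraries can change, differed between them. The entries miR-5866, miR-5843 and miR-5360-5p took 87.2% (86.6 to 87.8) of the set's 10797 female reads and 48.2% (45.8 to 50.7) of its 1641 male reads. The remainder was led by bma-miR-5364, with 7.78% (7.28 to 8.30) of the set's reads in females and 35.0% (32.7 to 37.3) in males. For bma-miR-5361 these shares were 3.18% and 7.74%. The 2 arms of miR-5838 together took 0.0556% (0.0204 to 0.121) of the set's reads in females and 5.30% (4.27 to 6.50) in males.

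**Figure D2:**
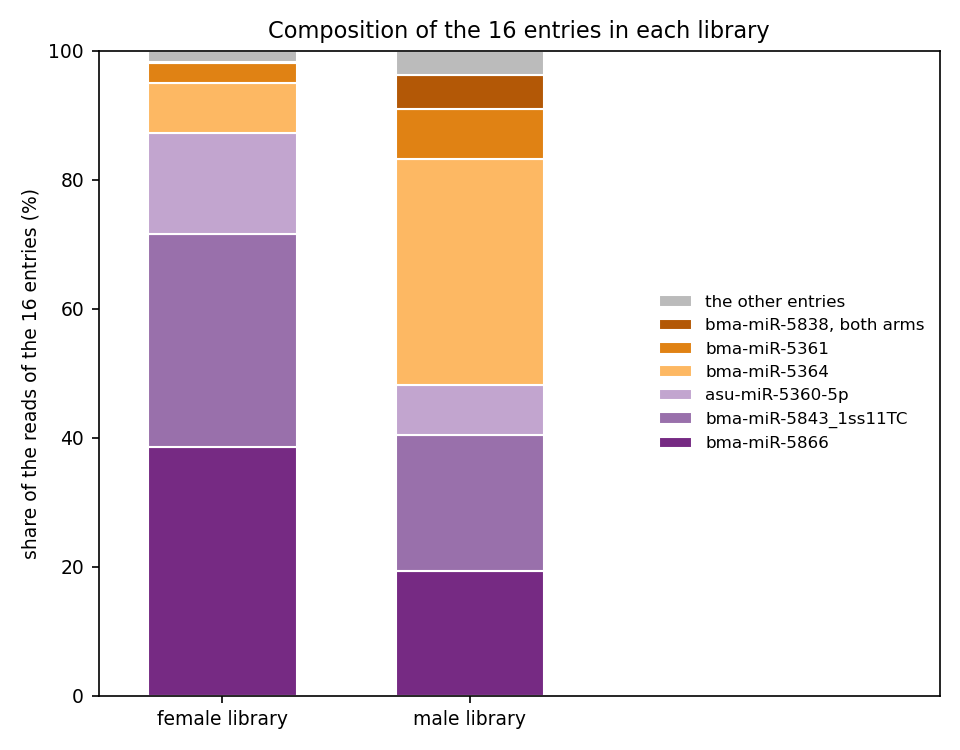
Share of the reads of the 16 entries taken by each miRNA, as stacked bars for the female (left) and the male library (right). The purple parts (miR-5866, miR-5843 and miR-5360-5p) sum to 87.2% in females and 48.2% in males.

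Members went both ways between the sexes. On the all-read scale the shares of miR-5866, miR-5843, miR-5360-5p and miR-5845 were higher in females by 2-fold or more, and those of miR-5364, miR-5363-5p, miR-5365b and both arms of miR-5838 were lower by 2-fold or more. These are 4 and 5 of the 13 members that had at least 10 reads in a library, beside 18.5% and 62.0% of all 287 entries with that many reads. Among the 112 nematode-named and candidate entries the background was 35.7% higher and 18.8% lower, and among the 62 older nematode-named entries 32.3% and 21.0%. The median log2 ratio was -0.38 over the 13 members, 0.24 over the 62 older entries and -2.66 over all 287, with entries at 0 set to the floor. On the worm-read scale 0 members were higher and 7 lower by that size, where 5.57% and 68.6% of all entries, 8.04% and 33.9% of the nematode-named and candidate entries, and 11.3% and 37.1% of the older nematode-named entries were. On the authors' normalized values 9 members were higher and 2, both arms of miR-5838, were lower, where 39.7% and 30.3% of all entries, 85.7% and 5.36% of the nematode-named and candidate entries, and 83.9% and 3.23% of the older nematode-named entries were. The authors' values are the raw reads times 1.09 for females and 0.915 for males. They are not divided by the library total, so the 3.91-fold difference in depth stays in them. They multiply each all-read ratio by 4.67. These counts describe 2 libraries and hold only the members that passed the minimum. No member shares its sequence with another entry or holds parts of reads.

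**Figure D3:**
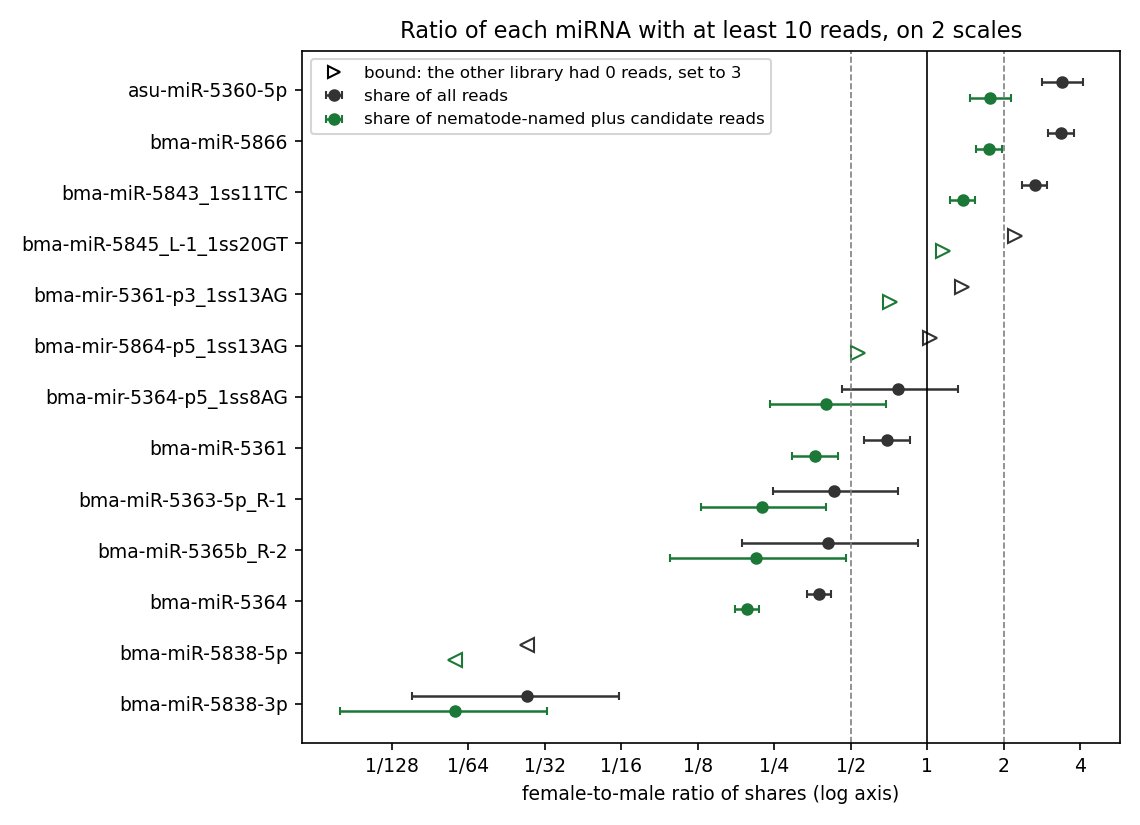
Ratio of female to male shares on a log axis for the 13 members with at least 10 reads, on the all-read (black) and the worm-read scale (green), with exact 95% intervals. Triangles are ratios with the 0 reads of 1 library set to the floor of 3, and dashed lines mark 2-fold. Both arms of miR-5838 lie at or below a ratio of 0.0265 on both scales, and the top 3 lie above 1 on both.

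The abundant members on the female side were miR-5866, miR-5360-5p and miR-5843. bma-miR-5866, with 4158 female and 318 male reads, stood at 3.34 (2.98 to 3.76) on the all-read scale and 1.74 (1.55 to 1.96) on the worm-read scale. For asu-miR-5360-5p, with 1693 and 128 reads, the ratios were 3.38 (2.83 to 4.08) and 1.76 (1.47 to 2.12). bma-miR-5843_1ss11TC, with 3566 and 345 reads, had 2.64 (2.37 to 2.96) and 1.38 (1.23 to 1.54). All 3 thus lay above 1 on both scales, beyond counting error, and below 2-fold on the worm-read scale. The 23 older nematode-named entries with at least 1000 reads in a library had a median ratio of 2.29 on the all-read and 1.19 on the worm-read scale. On the all-read scale 13 of them were higher and 2 lower in females by 2-fold or more, and on the worm-read scale 5 and 4. The female library was 3.91 times deeper, so entries high in females reach 1000 reads more easily. All 3 members reached it in the female library alone. The counts by side are therefore not independent of this minimum.

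Within the set the ratio of asu-miR-5360-5p was the nearest to that of miR-5866. Among nematode-named entries outside the set, the nearest by distance of log2 ratios over these 2 libraries were bma-miR-7_R+1, bma-miR-100d_R+1 and bma-miR-100a_R+1. With 175 female and 13 male, 56234 and 4428, and 60686 and 4973 reads, their all-read ratios were 3.44 (1.96 to 6.60), 3.25 (3.15 to 3.35) and 3.12 (3.03 to 3.21). The last 2 are the most abundant miRNAs of the female library.

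The most abundant member on the male side was miR-5364. It had 840 female and 574 male reads, and its share was lower in females by 2.67-fold (2.40 to 2.97) on the all-read and 5.13-fold (4.61 to 5.71) on the worm-read scale. Its position among the worm entries is seen in the plot of female against male shares, where it stands apart from miR-5866, miR-5843 and miR-5360-5p. Smaller counts on the same side came from bma-miR-5363-5p_R-1, with 37 female and 22 male reads and an all-read share 2.32-fold lower (1.31 to 4.05) in females. bma-miR-5365b_R-2 had 19 and 12 reads and was 2.47-fold lower (1.09 to 5.36). These intervals exclude equal shares on this scale but not a difference under 2-fold. bma-miR-5361, with 343 and 127 reads, was lower in females by 1.45-fold (1.17 to 1.78) on the all-read and 2.78-fold (2.25 to 3.42) on the worm-read scale. On the authors' normalized values miR-5364, miR-5363-5p, miR-5365b and miR-5361 all turn to the female side, with ratios of 1.75, 2.01, 1.89 and 3.23. These ratios still hold the 3.91-fold difference in depth between the libraries.

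Under each scaling tried, both arms of miR-5838 were far lower in females. The 3p arm had 6 female and 58 male reads and the 5p arm 0 female and 29 male reads. The share of the 3p arm was lower in females by 37.8-fold (16.3 to 107) on the all-read and 72.6-fold (31.4 to 206) on the worm-read scale. With its 0 female reads set to the floor of 3, the 5p arm was 37.8-fold lower on the all-read scale. The exact 95% lower limit of this difference was 28.8-fold. At the male share of all reads, the larger female library would have held 226.7 reads of the 3p arm and 113.4 of the 5p arm. The 2 arms summed to 6 female and 87 male reads, 56.7-fold lower (25.0 to 159) in females. They carry different seeds, and neither seed was found in another entry.

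**Figure D4:**
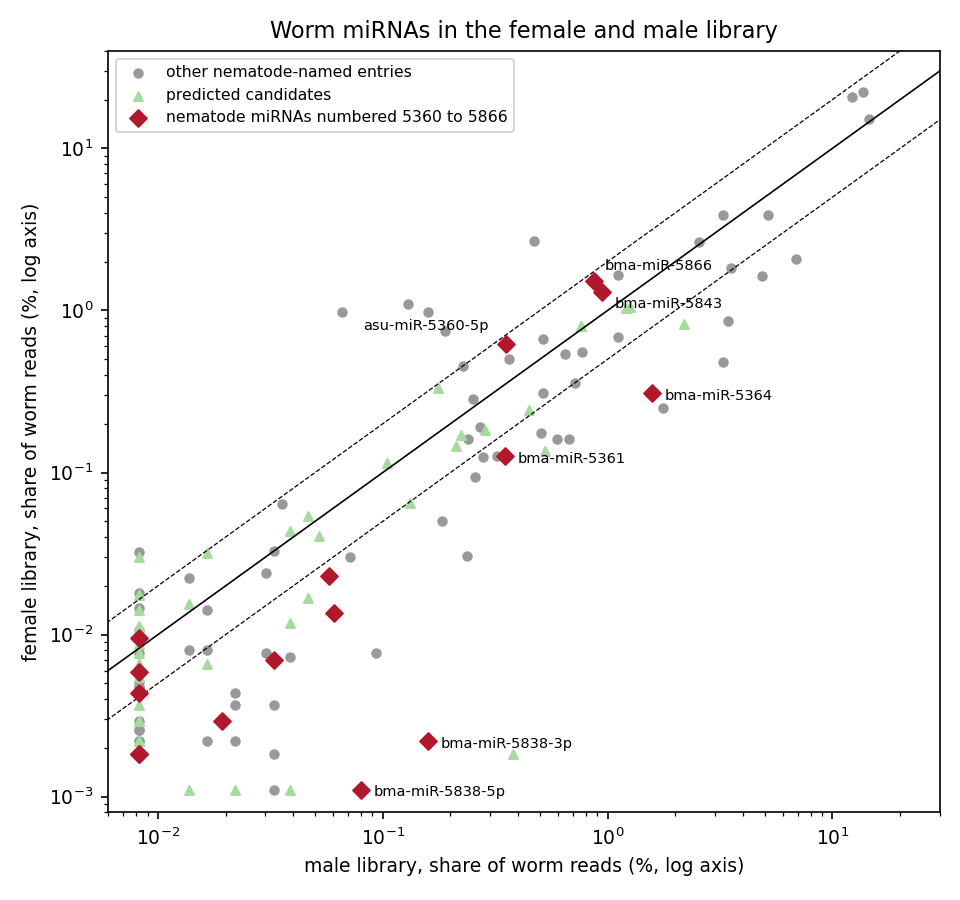
Share of worm reads in the female (vertical) against the male library (horizontal), both on log axes, for the nematode-named and candidate entries, with the 16 entries as red diamonds. The solid line marks equal shares and the dashed lines 2-fold, entries at 0 are drawn at 3 reads, and the 2 arms of miR-5838 lie far below the lines at 6 and 0 female reads.

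The remaining members came at low counts. Both libraries held reads of 10 of the 16 members, the female library alone of 5 and the male library alone of 1 (miR-5838-5p), in libraries that differed 3.91 times in depth. For the 69 older entries these numbers were 53, 15 and 1. They were 86, 38 and 5 for the 129 nematode-named and candidate entries, and 257, 70 and 57 for all 384 entries. bma-miR-5845_L-1_1ss20GT had 26 female and 0 male reads. Against the floor of 3 male reads its share was 2.22-fold higher in females on the all-read and 1.15-fold on the worm-read scale. The exact 95% lower limits of these ratios were 1.68 and 0.874, which lie under 2-fold and under 1. With equal worm-read shares 3.46 male reads would be expected, so a 2-fold excess on that scale was not detectable at this depth. bma-miR-5861 had 8 and 7 reads, below the minimum of 10 in both libraries, and no ratio was formed. bma-mir-5864-p5_1ss13AG, the shortest sequence of the set at 18 nt, had 12 female and 0 male reads and no call on either share scale. For miR-5864 no other arm was among the entries.

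Of the 11 numbers, 5 had both arms in the table, with the 5p arm leading for miR-5360 and miR-5361 and the 3p arm for miR-5364, miR-5838 and miR-5845. The minor arms of miR-5361, miR-5364 and miR-5845 carry deposited names in lower case, bma-mir-5361-p3_1ss13AG, bma-mir-5364-p5_1ss8AG and bma-mir-5845-p5_1ss1TA, and that of miR-5360 is asu-miR-5360-3p. For miR-5360 the female library held 1693 reads of the 5p and 5 of the 3p arm, 0.294% (0.0957 to 0.686) for the 3p arm, and the male library 128 and 0 reads. For the 0 of 128 male reads, the exact 95% upper limit of the 3p share is 2.84%, and 3 reads would be 2.34%. For miR-5361 the 3p arm had 16 of 359 female reads, 4.46% (2.57 to 7.14), and 0 of 127 male reads, with an exact upper limit of 2.86% (3 reads would be 2.36%). The female interval starts below that limit, so the 2 intervals overlap. Overlap of separate intervals does not decide whether the shares differ, and their difference was not tested. For miR-5364 the 5p arm had 63 of 903 female reads, 6.98% (5.40 to 8.84), and 21 of 595 male reads, 3.53% (2.20 to 5.34). The intervals of these 2 shares did not overlap, by a narrow margin. The all-read ratio of this 5p arm alone was 0.767 (0.462 to 1.32), within counting error of equal shares, against 0.374 (0.336 to 0.417) for its 3p partner. In the male library 29 of 87 reads of miR-5838 came from its 5p arm, 33.3% (23.6 to 44.3), the most even split of the set there. The 6 female reads are too few to compare it. For miR-5845 the female library held 5 reads of the 5p and 26 of the 3p arm, and the male library 0 of both. At the median the minor arm took 4.46% of the female reads over these 5 hairpins and 0.677% over 11 hairpins of older nematode-named miRNAs, which ranged up to 31.0%. Female reads per hairpin ran from 6 to 1698 in the set and from 71 to 60692 in the older ones. The 11 older hairpins do not include miR-36a, although bma-mir-36a-2-p5_1ss13CT and bma-miR-36a_R+1_1ss20TC had 29 and 4534 female reads. Hairpins were compared only where both arms were in the table, which a rare minor arm reaches more easily at high read numbers. The part of depth in this difference was not tested.

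**Figure D5:**
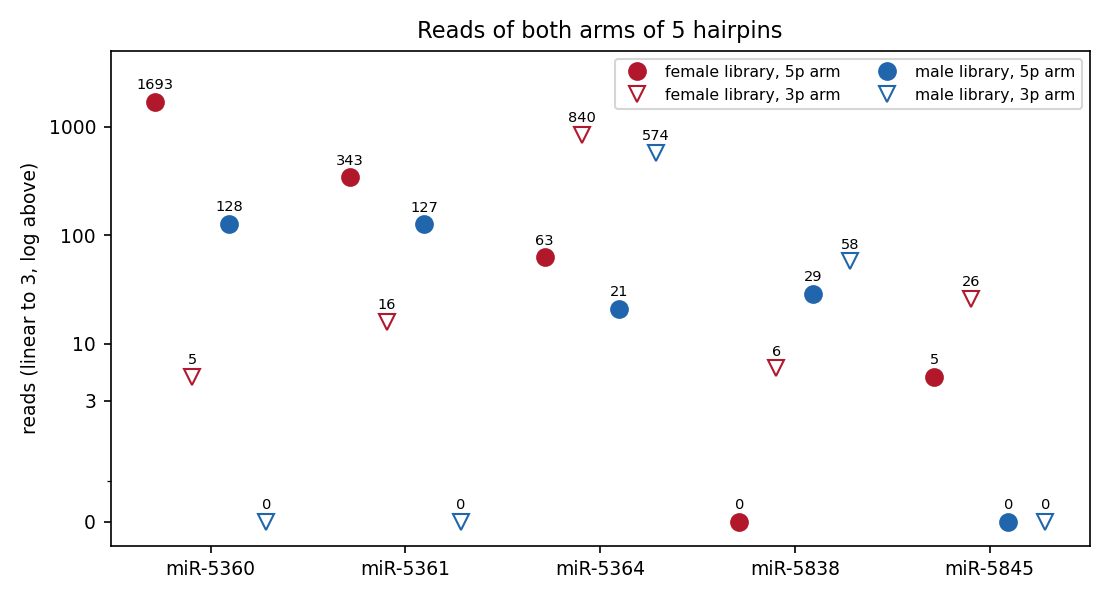
Reads of the 5p arm (filled circles) and the 3p arm (open triangles) of 5 hairpins in the female (red, left) and the male library (blue, right), on an axis linear to 3 and logarithmic above. The printed numbers are the reads, and the leading arm holds at least 93.0% of the female reads for miR-5360, miR-5361 and miR-5364.

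Both arms of each of these 5 hairpins could be paired to each other as arms cut from a hairpin would be. With RNAduplex, 13 to 18 base pairs were found per duplex, 16 at the median, at energies from -22.3 kcal/mol for miR-5364 to -15.7 kcal/mol for miR-5361. Each duplex left 3′ overhangs of 1 to 2 nt at both ends, the form that Drosha and Dicer leave. For 11 hairpins of older nematode-named miRNAs with both arms in the table, 15 to 20 pairs were found, and 8 of the 11 had overhangs of 1 to 3 nt at both ends. The p5 and p3 names appear to mark a place on a hairpin, so the pairing is not independent of the naming.

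Seeds set most of the members apart from one another and from older families. The 16 entries had 16 different seeds. Only 1 member, bma-miR-5843_1ss11TC, shared bases 2 to 8 with an older nematode family, that of miR-87, which in Drosophila acts in the regrowth of neuron dendrites. Counted from 1 at the 5′ end, miR-5843 differs from bma-miR-87a_R+1 by G1A in its first 8 bases (base of miR-87a first), and in 9 of the next 14 bases. miR-5843 had more reads than both miR-87 entries in each library. bma-miR-87a_R+1 had 1467 female and 236 male reads and bma-miR-87b_R+1 had 256 and 94. The all-read ratio was 2.64 for miR-5843, 1.59 for miR-87a and 0.697 for miR-87b, and the worm-read ratio 1.38, 0.828 and 0.363. The 3 entries with this seed did not share a side on either of these scales, but on the authors' normalized values all 3 stood on the female side, at 12.3, 7.42 and 3.25.

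bma-miR-5363-5p_R-1 was next to this seed without sharing it. It differs from miR-5843 by A4G in the first 8 bases, and from bma-miR-87a_R+1 by G1A and A4G. Over 22 bases it was identical to each of them at 13. The best ungapped match of the 16 entries to a nematode-named entry of another number ranged from 50.0% to 65.0% identity, 56.3% at the median. A match of 13 of 22 is 59.1%, and that between miR-5363-5p and miR-5843 is itself among these best matches. Percent identity ignores where the identical bases lie, and whether these entries are related was not tested.

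bma-miR-5364 came close to the seed of let-7, the family that times larval development in C. elegans. It shares bases 2 to 7 with asu-let-7-5p and asu-miR-84-5p, and in the first 8 bases differs from both by T1C and G8T. Beyond base 8 it differs from asu-let-7-5p in 11 of 14 bases. The let-7 entry had 1304 female and 1185 male reads and an all-read share 3.55-fold lower in females, where miR-5364 was 2.67-fold lower. asu-miR-84-5p had 10 and 12 reads. All 3 stood on the male side on both share scales. On the authors' normalized values this was lost, with ratios of 1.75 for miR-5364, 1.31 for let-7 and 0.995 for miR-84. In addition, 7 mammal-named entries, nearly all of them let-7 forms, share bases 2 to 7 with miR-5364 and had 958 female and 2358 male reads. Mammalian and worm let-7 can be identical, so a let-7 name, that of asu-let-7-5p included, does not fix the source of its reads. Whether the reads of asu-let-7-5p came from the worms was not tested.

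The candidate PC-3p-37196_8 holds the whole of miR-5364 with extra bases at its 3′ end, and had 0 female and 8 male reads. No seed of the other 14 members was found in any other entry, and none was found with the seed shifted by 1 base either way. The longest run that 2 numbers of the set shared was 10 bases, between bma-miR-5838-5p (from base 4) and bma-miR-5845_L-1_1ss20GT (from base 12).

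In sequences that begin with T the set was close to the other nematode miRNAs, and its median GC content was lower. Of the 16 sequences 8 began with T and 7 with A, against 38 of the 69 older entries with T. Starts with A were not counted in the older entries. GC content was 40.9% at the median (27.3 to 50.0), against 45.8% (23.8 to 66.7) in the older entries. Lengths ran from 18 to 23 nt, with 10 sequences of 22 nt.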

How the data were processed

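The deposited table lists 384 entries with a name, a sequence and, per library, a raw and a normalized column. The deposited columns headed raw hold expected counts by their values: 126 entries, none of them in this set, hold parts of reads. How these parts arose is not stated. The deposited normalized column, treated as a signal, equals the raw column times 1.09 for females and 0.915 for males. For aligner, database release and genome, the labels are silent (not given in the sources used here). Name suffixes are kept as deposited. Per the labels' protocols, libraries used TruSeq small RNA chemistry.

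Members were taken by name (number 5300 to 5899 and code bma, asu, cel, str, prd or hpo). Shares are of all reads (main) or of worm reads, and ratios carry exact conditional binomial 95% intervals (scipy 1.17.1). An entry is called by size, at least 2-fold, with at least 10 reads in a library. An entry at 0 is set to 3 reads, and its ratio is called only in the direction the floor bounds. Of all reads, 3 are 0.00102% in females and 0.00401% in males. With 1 library per sex there is no test. All members are named, with the entries that share their seed. Duplexes came from RNAduplex (ViennaRNA 2.7.2) and TMM factors from edgeR 4.0.16 on rounded counts. Columns of per-sample values left unused numbered 0. Members and lists were chosen with earlier results of these data known.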

Additional observations from a re-analysis of the deposited data

How the results depend on the processing

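The scale decided the counts. The 4 members higher in females by 2-fold or more became 0 on the worm-read scale, 9 on the authors' normalized values, 11 with edgeR TMM scaling and 11 with median-of-ratios scaling. The 5 lower by 2-fold or more became 7 on the worm-read scale, 2 on each of the last 3 scales and 1 with a minimum of 100 reads. They were 4 with totals that leave out the most abundant entry of each library, where miR-5363-5p stood at 0.504, and 6 with a minimum of 5 reads or none. The summed ratio of 1.68 became 0.876, 7.86, 9.09 and 11.2 on these 4 scales, 1.97 with totals without those entries, and 1.28 without miR-5866, the last chosen after seeing the data. Names in mixed case alone, also chosen after seeing the data, gave 4 higher and 5 lower. miR-5364, miR-5363-5p and miR-5365b turned to the female side at 1.75, 2.01 and 1.89 on the authors' values, 2.02, 2.32 and 2.19 with TMM and 2.50, 2.87 and 2.70 with median-of-ratios scaling. A change of scale multiplies all ratios by a common factor, from 0.521 (worm-read scale) to 6.67 (median-of-ratios scaling). Within that range miR-5866, miR-5360-5p, miR-5843 and miR-5845 (the last against the floor) stayed above 1. Both arms of miR-5838 stayed at or below 0.176. With a seed of bases 2 to 7, the older nematode entries that share a member's seed rose to 5, against 2. A floor of 1 read gave 6 higher members, and put miR-5845 at 6.65 (2.22 with 3 reads) and miR-5838-5p at 0.00882 (0.0265). Merged identical sequences and other minimums cannot change the ratio of a member. This floor changes only the ratios of members with 0 reads in a library, and it turned none of them. No paired analysis was possible because each sex has 1 library. Pseudocounts did not apply to counts. Depth limits the male library most, where 0 reads have an exact 95% upper limit of 0.00493% of all reads.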
